A study of Mus musculus with 78 samples.

Results

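H3K27me3, the trimethylation of lysine 27 of histone H3, was profiled by ChIP-seq in synchronized C2C12 myotubes, and the regions described here are those that had a peak in every later list but in no list at 12 h. To find them, the peaks of the 18 deposited H3K27me3 lists on chromosomes 1 to 19 were merged into 77700 regions, and a region was kept when a peak overlapped it in each of the 15 lists from 16 h to 32 h and in 0 of the 3 lists at 12 h. This rule gave 1901 regions, which are 2.45% of all merged regions and 13.2% of the 14351 regions that had a peak in 15 of 15 later lists. The measured presence of H3K27me3 peaks chose the regions, so their absence at 12 h is a description and was not tested. C2C12 myoblasts, an established line of mouse muscle precursors, form multinucleate myotubes when they differentiate, and the cells had been synchronized with 50% horse serum and collected at 12, 16, 20, 24, 28 and 32 h, with 3 biological replicates per time point. H3K27me3 came from unmodified C2C12 myotubes with formaldehyde fixation. Bio-EZH1, which is biotinylated Avi-tagged EZH1α recovered on streptavidin, and SUZ12 came from double-crosslinked C2C12 cells that carry the BirA ligase and the tagged EZH1α together with a short hairpin RNA against Ezh1, so the mark and these factors were not read in the same cells. HA-EZH1 samples are labelled as C2C12, without the antibody or the modified line, and the sample names of the SUZ12 lists refer to streptavidin while their labels name the SUZ12 antibody, which was followed here. Each profile has 18 lists, and p-values measure the spread between these samples.

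Polycomb repressive complex 2 (PRC2) writes H3K27me3 through its catalytic subunit EZH1 or EZH2, and SUZ12 is a core subunit that the complex needs in order to be stable. In muscle, EZH2 is abundant in dividing myoblasts and EZH1 persists in post-mitotic myotubes. The mark forms broad domains over silent developmental genes, often around GC-rich promoters, and lower levels of it extend over gene bodies and intergenic DNA.

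Stretches of 4 of the regions are shown, with CpG sites in capitals. They stand for the region of highest fold, a further region that holds a transcription start site (TSS), one with a Bio-EZH1 peak in 18 lists and one with a SUZ12 peak in 18 lists. Each is the centre of the bases that the peaks of all 15 later lists share, on the plus strand of mm10.
Rasd1, chr11:59963968-59964267: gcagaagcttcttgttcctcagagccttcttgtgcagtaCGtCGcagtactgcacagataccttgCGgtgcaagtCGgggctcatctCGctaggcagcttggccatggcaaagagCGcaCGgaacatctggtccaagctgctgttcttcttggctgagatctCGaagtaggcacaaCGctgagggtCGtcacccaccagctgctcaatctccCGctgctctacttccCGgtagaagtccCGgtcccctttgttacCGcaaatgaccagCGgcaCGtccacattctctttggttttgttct
F12, chr13:55420612-55420911: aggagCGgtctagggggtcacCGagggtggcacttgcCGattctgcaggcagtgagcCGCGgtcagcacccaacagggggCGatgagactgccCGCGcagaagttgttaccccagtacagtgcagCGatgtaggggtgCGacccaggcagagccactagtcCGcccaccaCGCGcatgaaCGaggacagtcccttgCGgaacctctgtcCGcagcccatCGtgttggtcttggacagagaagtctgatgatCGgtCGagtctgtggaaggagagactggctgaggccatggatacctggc
Nags, chr11:102146134-102146433: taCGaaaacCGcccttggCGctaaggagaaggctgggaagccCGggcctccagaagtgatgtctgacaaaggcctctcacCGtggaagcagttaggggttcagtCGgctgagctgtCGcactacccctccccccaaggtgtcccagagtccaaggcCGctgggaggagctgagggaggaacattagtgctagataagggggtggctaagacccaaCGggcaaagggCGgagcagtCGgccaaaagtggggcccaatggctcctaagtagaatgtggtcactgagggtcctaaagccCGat
Cyp26a1, chr19:37698311-37698610: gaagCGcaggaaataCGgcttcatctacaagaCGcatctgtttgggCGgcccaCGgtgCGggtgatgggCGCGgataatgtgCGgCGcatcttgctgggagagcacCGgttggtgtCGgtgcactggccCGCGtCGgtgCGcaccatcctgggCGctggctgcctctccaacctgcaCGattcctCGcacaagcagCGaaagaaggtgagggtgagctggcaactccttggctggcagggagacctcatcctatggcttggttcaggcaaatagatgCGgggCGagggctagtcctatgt

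The 4 stretches held 16, 19, 12 and 22 CpG sites in 300 bp, and their GC content was 55.3% for Rasd1, 62.0% for F12, 59.3% for Nags and 61.3% for Cyp26a1. Their ratios of observed to expected CpG were 0.703, 0.668, 0.463 and 0.796. Over the whole width of the 1901 regions the 90th percentile was 0.427 for this ratio and 55.0% for GC, so the stretches are not typical of the set. Coding sequence filled 300 bases of the Rasd1 stretch, 223 bases of the F12 stretch and 205 bases of the Cyp26a1 stretch, and none of the Nags stretch, which meets an exon in the records of Nags and of Gm11586 on the opposite strand. Among them only the Rasd1 stretch held CAGCTG, the form of the E-box that myogenic factors prefer, and CACGTG, the E-box of the clock activators BMAL1 and CLOCK, was in none of the 4. Over all 1901 regions the central 300 bp held CACGTG in 4.31% and CAGCTG in 18.99%, against 3.77% and 13.3% of the regions with a peak in 18 of 18 lists and 3.07% and 11.9% of all merged regions. Both motifs are palindromes, so a match on either strand is read, and a window may hold both. Both also consist mostly of G and C, while the median GC content of the 3 sets was 50.6%, 44.3% and 43.1%, and its part in these shares was not tested. These are matches of letters in a window and were not tested as binding sites.

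The limits of the rule cut through a graded set of regions. Besides the 1901 regions, 444 had a peak in 14 later lists and none at 12 h, and 341 had a peak in 13. On the other side, 495 regions had a peak in 15 later lists and in 1 list of 12 h, and 625 in 2 lists of 12 h, while 11330 had a peak in all 18 lists and served as the comparison. Regions with 1 list of 12 h had a median GC content of 48.3% and a median fold of 2.85, and those with 14 later lists 49.9% and 2.56. With only peaks of q under 0.01 the rule gave 1059 regions, which overlapped 619 of the 1901 (32.6%), and where a list counted only if its peaks covered at least 25% of a region it gave 2305, which overlapped 1104 (58.1%). In the opposite direction, 2343 regions had a peak in 3 lists at 12 h and in no later list. The 12 h lists held 55637 to 61391 peaks over 201 to 228 Mb, against 37976 to 42834 peaks over 174 to 241 Mb later. Their peaks were weaker, with a median fold per list of 2.14 to 2.26 against 2.48 to 2.93 later. In the 11330 regions with a peak in all 18 lists, the median fold per list was 2.42 to 2.52 at 12 h and 2.96 to 3.36 later. The part of this weakness in the absence of the regions was not tested.

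The regions missing at 12 h were narrower than those present in 18 lists, but wider than all merged regions, whose median width was 1737 bp. Their median width, from the first to the last base of the merged peaks, was 5643 bp, with quartiles of 3770 and 8263 bp and a range from 624 to 39679 bp, against a median of 14876 bp for regions present in 18 lists. Their fold, which is the enrichment of the highest peak over the background modelled by the peak caller, had a median of 2.79 over the later lists and a range from 1.95 to 7.03, against 3.02 and a range from 1.99 to 16.2 in the comparison. Thus the regions were weaker by a small step in fold and narrower by a large one. A wider region also has more room for a high peak. With the mean fold of the peaks, weighted by their length, the medians were 2.76 and 2.91. The merged width includes 12 h peaks where a region has them, and a wider region has more room for such a peak, so the rule itself fixes part of the difference in width. In the later lists alone, the bases covered by peaks had a median of 2634 to 3807 bp per list in the regions and of 6533 to 10092 bp in the comparison. As a description, the share of regions without a 12 h peak was 49.1% (95% Wilson interval 46.1 to 52.05) among the 1092 regions under 4 kb, 25.3% from 4 to 8 kb, 9.72% from 8 to 16 kb, 2.40% from 16 to 32 kb and 0.192% in the 2082 regions of 32 kb or more. By fold it was 28.9% under a fold of 2.5 and 3.44% at a fold of 4 or more. The peaks of all 15 later lists shared at least 1 base in 1600 of the 1901 regions (84.2%), with a median of 1107 shared bases.

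**Figure D1:**
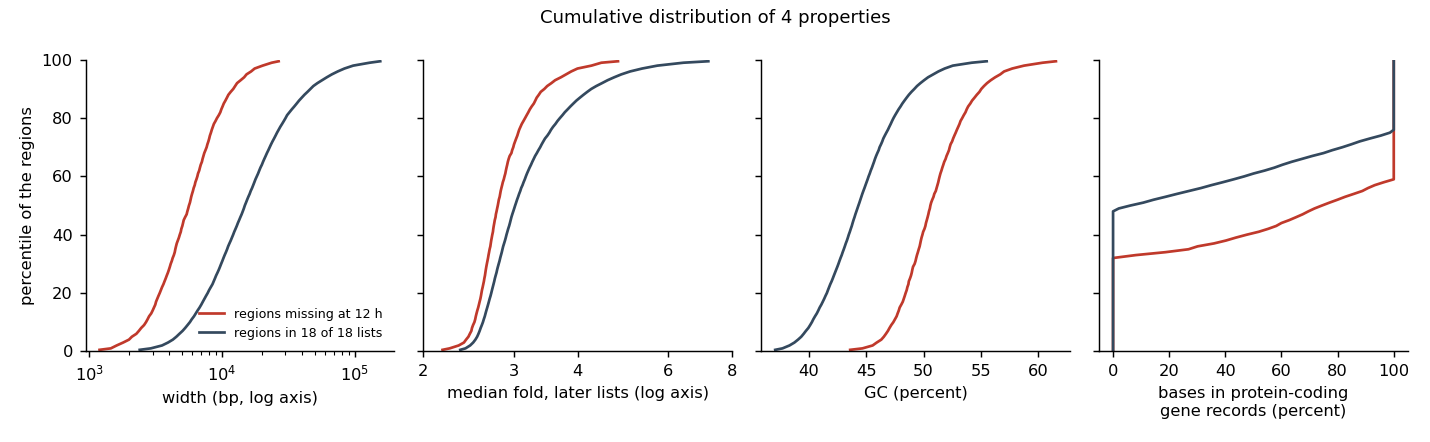
Cumulative distributions over the 1901 regions missing at 12 h (red) and the 11330 regions in 18 of 18 lists (dark), with the percentile of the regions on the y axis and width in bp (log axis), median fold over the 15 later lists (log axis), GC percent and percent of bases in protein-coding gene records on the x axes. The red curve lies at smaller widths (median 5643 against 14876 bp) and at higher GC (median 50.6% against 44.3%).

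The regions were rich in GC, a property that the rule had not used. The median GC content was 50.6% in the regions missing at 12 h, with quartiles of 48.8% and 52.8%, against 44.3% and quartiles of 42.1% and 46.8% in regions present in 18 lists. Of the regions missing at 12 h, 58.7% were above 50% GC and 0.684% below 44%, whereas in the comparison 7.15% were above 50% and 46.3% below 44%. The ratio of observed to expected CpG was 0.234 against 0.198 at the median, and 16.7% against 24.7% of the bases were repeats by the soft-masking of the genome. Among the 14351 regions present in 15 later lists, the share without a 12 h peak was 0% of 937 regions under 40% GC (upper bound of the Wilson interval 0.408%), 1.78% from 44% to 46%, 9.93% from 46% to 48%, 27.4% from 48% to 50%, 42.8% from 50% to 52%, 56.8% from 52% to 54% and 64.3% (59.8 to 68.6) at 54% or more. Within regions of 4 to 8 kb it went from 0% under 40% GC to 72.2% from 52% to 54%, and within the class of fold that holds the median of the regions, just under 3, from 0% to 90.2%, so the gradient was also seen at 1 width and at 1 fold. At 54% GC or more these shares were 64.1% and 71.4%.

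Regions that did keep a 12 h peak showed a gradient in the same measure. In the comparison set, the median fold at 12 h was 2.67 under 40% GC and 1.90 from 52% to 54% GC, while the median fold over the later lists was 2.83 and 4.63. The median difference between 12 h and the later lists on the log2 scale thus ran from -0.08 under 40% GC to -1.29 from 52% to 54% GC. The whole lists differed as well, since the bases under the 12 h peaks were 42.6% to 43.4% GC and those under the later peaks 45.8% to 47.1%, with no overlap. The 3 lists at 12 h are the only lists of that time point, so the time point and the base composition of its libraries cannot be told apart, and the part of this composition in the absence of the 1901 regions was not tested. Spike-in factors were not used here, and the folds are not calibrated between time points.

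**Figure D2:**
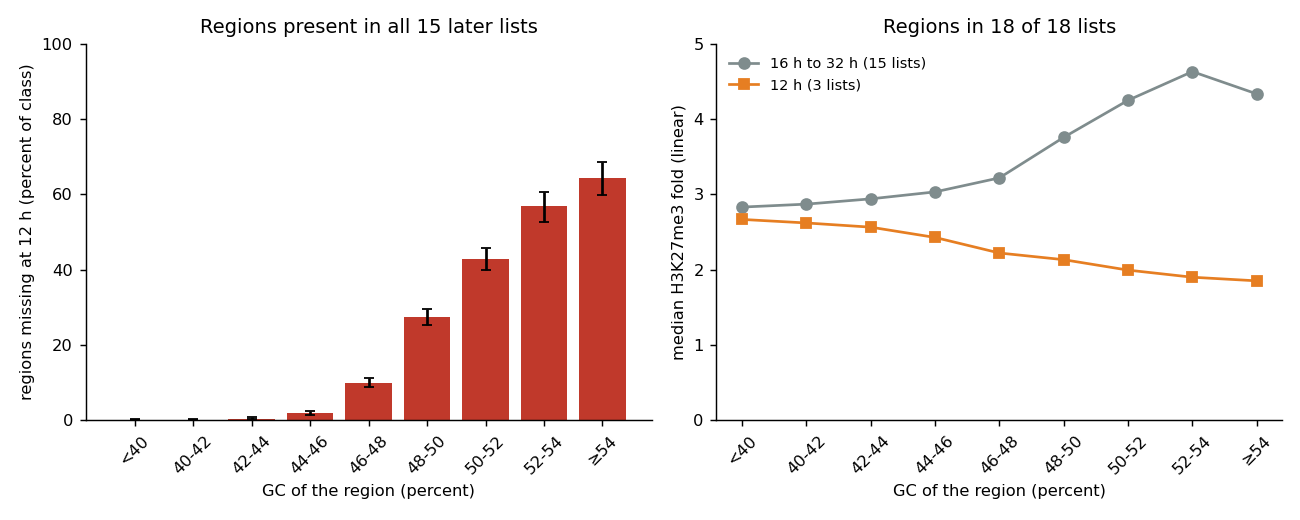
On the left, percent of the regions present in all 15 later lists that have no peak at 12 h, by class of GC percent, with 95% Wilson intervals that cover counting error only, rising from 0% under 40% GC to 64.3% at 54% or more. On the right, median H3K27me3 fold (linear) of the regions in 18 of 18 lists by the same classes, at 12 h (orange squares) and from 16 h to 32 h (grey circles), which part from 2.67 against 2.83 to 1.90 against 4.63.

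Even at a high GC content, regions that lacked a 12 h peak were smaller and less often overlapped by PRC2 peaks than those present in 18 lists. Of the regions at or above 50% GC, 1117 were missing at 12 h and 811 were present in 18 lists. The missing ones had a median fold of 2.87 against 4.27 and a median width of 5589 against 17438 bp. In this class the share with a Bio-EZH1 peak in 9 or more lists was 18.98% against 78.1%, the share with a SUZ12 peak in 9 or more lists 7.61% against 76.9%, and the share holding a protein-coding TSS 28.6% against 59.7%. A wider region has more room for such a peak or TSS and for a high fold. The part of width in these values was not tested. At this GC content the share missing at 12 h was 79.8% of regions under 4 kb and 1.67% of regions of 32 kb or more.

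The regions lay inside genes more often than the comparison. Their centre was in an exon in 14.99%, in an intron in 51.2% and outside any gene record in 33.8%, against 5.55%, 41.6% and 52.8% of regions present in 18 lists and 4.48%, 39.6% and 56.0% of all merged regions. At least 90% of the bases lay in protein-coding gene records in 44.2% of the regions, against 27.4%. Promoters did not separate the regions from the comparison in the same way, since 34.3% of the regions had the TSS of a gene record within 1 kb (40.1% in the comparison and 12.9% of all merged regions), and 402 regions or 21.1% held the TSS of a protein-coding gene (21.6% and 5.09%). The nearest 12 h peak was a median of 13156 bp away, and for 42.1% of the regions it was within 10 kb. By chromosome, regions were most numerous on chromosome 4 with 214, which is 22.5% of its regions present in 15 later lists, and on chromosome 11 with 195 (18.5%), and the share was lowest on chromosome 3 with 6.72%. The median GC content of the regions present in 15 later lists was 47.6%, 46.9% and 43.4% on these 3 chromosomes.

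Over the later time points the fold of the regions moved together with that of the comparison. The median fold over the 1901 regions averaged 2.753 ± 0.0118 in the 16 h lists (SD, n = 3 here and for the other times). It was 3.06 ± 0.0393 in the 20 h lists, 2.77 ± 0.0316 in the 24 h lists, 2.73 ± 0.00963 in the 28 h lists and 2.81 ± 0.0848 in the 32 h lists. Over the comparison the means were, in the same order, 2.98, 3.32, 3.03, 3.02 and 3.00. All 3 lists at 20 h were above the other 12 lists in both sets. The rule asked for a peak in each list from 16 h to 32 h, but did not use the differences among them. Changes among these times were tested with limma's moderated F test on log2 fold after subtracting the median of each list. Benjamini-Hochberg adjustment was over all 14351 regions. The test called 1217 of the 1901 regions (64.0%) at an adjusted p under 0.05, against 59.6% of all regions tested and 58.6% of the comparison, so the share was close to the background. The highest mean was at 32 h in 544 regions (28.6%) against 20.9% of all regions tested. This order depends on the centring, because the list medians were 1.695 to 1.721 at 20 h and 1.54 to 1.59 otherwise on the log2 scale, and without centring 62.7% of the regions (65.5% of all) were highest at 20 h and 14.4% (10.05% of all) at 32 h. The size of the changes was small, with a median range between the highest and the lowest time mean of 0.25 on the log2 scale (0.22 over all regions tested) and a highest value of 0.92. Regions without a peak in any 1 of the later lists had been left out of all sets tested, which limits the range that can be seen. Base composition moved with time here too, as peaks at 20 h and 32 h were 46.6% to 47.1% GC and those at 16 h, 24 h and 28 h 45.8% to 46.2%, and its part was not tested.

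**Figure D3:**
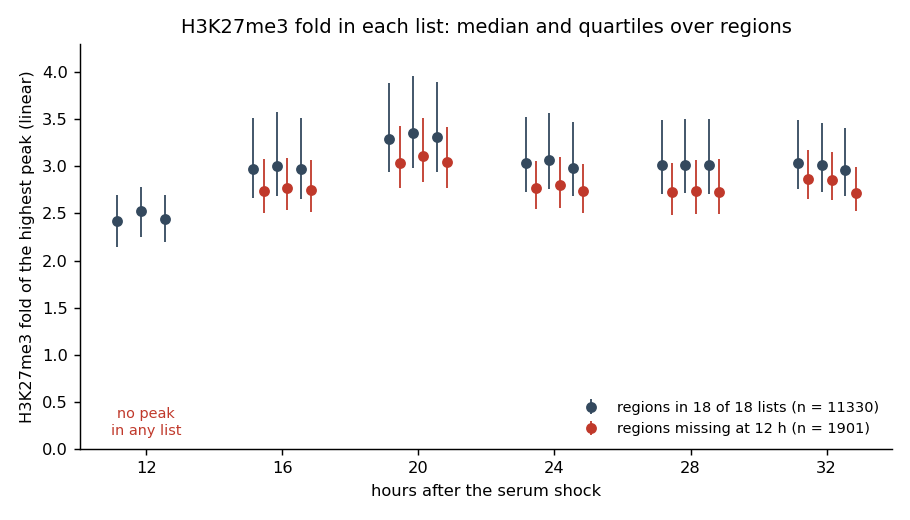
H3K27me3 fold (linear) of the highest peak in each of the 18 lists against hours after the serum shock, with the median as a point and the quartiles over regions as a bar, for regions missing at 12 h (red, from 16 h on) and regions in 18 of 18 lists (dark). Red medians lie below dark ones in each later list, and both are highest at 20 h (3.06 and 3.32 on average).

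The 10 regions of highest fold held a TSS in 8 cases. Foremost was a region of 2386 bp over Rasd1, a Ras-related protein that is induced by glucocorticoids and has been linked to the clock, at chr11:59962648-59965033. Its fold was 7.01, 7.50 and 7.05 at 16 h, 8.23, 10.1 and 9.60 at 20 h, 5.83, 6.87 and 7.03 at 24 h, 4.73, 5.71 and 5.08 at 28 h and 7.18, 7.27 and 5.89 at 32 h. The lists at 20 h were thus above all others and those at 28 h below all others (limma F test, adjusted p = 0.000161). This p and those below for single regions come from the F test over all 5 later time points on centred log2 fold. They do not belong to the times named, which were picked by their values. At Col14a1, which encodes a fibril-associated collagen, the fold over the 15 lists was 4.75 at the lowest, 6.08 at the median and 7.85 at the highest. F12, the gene of coagulation factor XII, had 4.86, 5.70 and 9.01, again with its 3 highest lists at 20 h. Fat4, an atypical cadherin of planar cell polarity, had 4.01, 5.52 and 6.11, with the mean lowest at 24 h. Vcan, the gene of the matrix proteoglycan versican, had 3.75, 5.33 and 6.47, with the 3 lists at 28 h below all others (adjusted p = 3.79e-05).

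Nags, the mitochondrial enzyme whose product activates the urea cycle, had 4.31, 5.22 and 6.60 at the lowest, median and highest list. A region in an intron of Pfkfb3, a regulator of glycolysis, had 3.29, 4.97 and 5.49, and its 3 lists at 16 h were below the other 12 (adjusted p = 2.23e-05). Thbd, the thrombin receptor thrombomodulin of endothelium, had 3.85, 4.95 and 5.75. A region in an intron of Hs3st1, a heparan sulfate sulfotransferase, 107746 bp from its TSS, had 3.77, 4.83 and 5.59, and the region at Cox19, an assembly factor of cytochrome c oxidase, 3.97, 4.82 and 5.16. Of these 10 regions, 9 were called over the later times by the limma F test, and the exception was Cox19 (adjusted p = 0.370). The same test called 64.0% of the 1901 regions and 59.6% of all regions tested, so most regions of any kind were called. The time of the highest mean was not shared, at 20 h for Rasd1, Col14a1 and F12, 16 h for Fat4, Nags and Thbd, 32 h for Vcan and Pfkfb3, 28 h for Hs3st1 and 24 h for Cox19, after centring. These 10 regions were chosen by the height of the fold and not by its change.

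**Figure D4:**
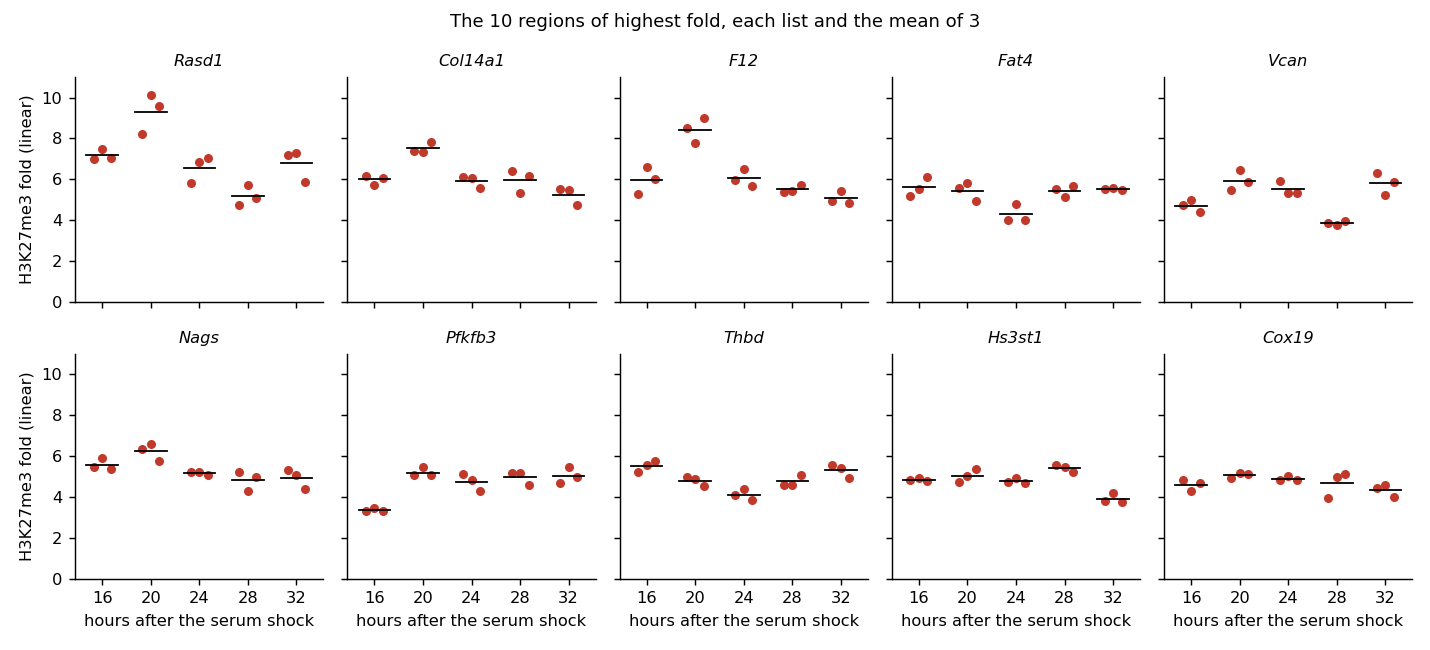
H3K27me3 fold (linear) of the 10 regions of highest median fold in each later list (red points, 3 per time point) with the mean of 3 lists (black line), against hours after the serum shock. Rasd1 reaches 10.1 at 20 h and falls to 4.73 at 28 h, while Cox19 stays between 3.97 and 5.16.

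Other regions over a protein-coding TSS had a lower fold. At Kcnn1, a small-conductance calcium-activated potassium channel, the fold was 5.81, 5.47 and 5.75 at 16 h and 3.43, 3.30 and 3.39 at 28 h, without overlap of the 2 time points. Over all later times the limma F test gave an adjusted p of 1.07e-06, and the values of p below are of the same test. Cbs, the first enzyme of transsulfuration, had 6.29, 6.18 and 5.86 at 32 h and at most 4.89 at the other times (adjusted p = 4.71e-07). Mapk15, an atypical MAP kinase, had 6.11, 6.11 and 6.46 at 16 h and 4.02, 4.43 and 3.95 at 24 h (adjusted p = 1.94e-06). Cldn23, a tight junction claudin, had 5.31, 5.70 and 5.82 at 20 h and 3.51, 3.44 and 3.21 at 24 h (adjusted p = 2.62e-06). Sox8, a transcription factor of neural crest and muscle satellite cells, lay between 4.12 and 5.26. Catsperz and Map6, genes of sperm flagella and of microtubules, had medians of 4.42 and 4.36, and for Map6 the test over time gave an adjusted p of 0.184.

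The widest regions were intronic and of moderate fold. A region of 39679 bp in Igsf21, a synaptic adhesion protein, at chr4:140099453-140139131, had a median fold of 3.30 and no peak of Bio-EZH1, SUZ12 or HA-EZH1 in any list. Next were 36381 bp in a gene record on chromosome 8 whose nearest protein-coding TSS is that of 1700018B08Rik (171498 bp away), 35625 bp in Rsph14, 32437 bp in Sulf2, an extracellular sulfatase, and 29755 bp upstream of Cdh15, the muscle cadherin M-cadherin. Their GC content was 51.4% to 53.0%, and Bio-EZH1 was found in 0 to 4 lists and SUZ12 in 0 to 6, the most at Rsph14. Some genes held several regions. Apart from the long record Gm20388, which spans other genes and holds 29 regions, Ephb2, a receptor tyrosine kinase of axon guidance, held 9 regions that covered 42.8% of it, Gabbr2, a subunit of the GABA-B receptor, and Shank2, a postsynaptic scaffold, held 8 each, and Atp9a held 7. In all, 1143 protein-coding genes met a region in the gene record or in the 3 kb before it, and 941 of them met 1 region.

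PRC2 subunits were found at a minority of the regions. At least 1 Bio-EZH1 list of 18 had a peak in 41.98% of them and at least 1 SUZ12 list in 36.8%, against 71.3% and 90.6% of the comparison and 17.4% and 36.3% of all merged regions. Neither was found in 51.2% of the regions, in 8.31% of the comparison and in 61.7% of all merged regions. A peak in 9 or more lists was present in 241 regions for Bio-EZH1 (12.7%), in 98 for SUZ12 (5.16%) and in 94 for both, against 31.9%, 63.6% and 31.1% of the comparison and 5.49%, 11.9% and 4.97% of all merged regions. For HA-EZH1, 83 regions (4.37%) had a peak in any list, against 37.4% of the comparison and 11.6% of all merged regions. Per list the share was 0% to 1.21%, against 1.98% to 14.7% of the comparison and 0.373% to 3.82% of all merged regions. The regions were narrower than the comparison and wider than all merged regions, whose median width was 1737 bp, and the part of width in these shares was not tested.

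Bio-EZH1 shares per list had nearly the same order of time points in both sets. The share of the regions with a peak was 14.4% ± 1.94 in the 12 h lists (SD, n = 3 here and for the other times). Later it was 11.2% ± 0.562 (16 h), 8.98% ± 0.489 (20 h), 18.8% ± 2.73 (24 h), 13.3% ± 1.35 (28 h) and 23.0% ± 1.39 (32 h). In the comparison the means were, in the same order, 34.2%, 27.5%, 28.6%, 42.8%, 30.6% and 43.5%. Lists at 24 h and 32 h were also the longest, with 14826 to 19553 peaks against 8406 to 13777 at the other times. Thus at 12 h, when H3K27me3 peaks were missing, Bio-EZH1 was found at the regions within the range of the later times. By an exact test of presence (two-sided Fisher's exact test, 3 lists of 12 h against 15 later lists, adjusted over 6168 regions with a peak in 2 to 16 lists) 0 regions were called in either direction, 0% of all tested. The smallest p that this test can reach is 0.00123, so after adjustment over so many regions it could hardly call any. Its result therefore does not show that presence was equal, here or for HA-EZH1 below. At an unadjusted p under 0.05, 7 of the 1901 regions had Bio-EZH1 peaks more often at 12 h (0.368%, against 0.0849% of all merged regions and 0.371% of the comparison). Another 4 had them less often (0.21%, against 0.0296% of all merged regions and 0.141% of the comparison). For HA-EZH1 the same exact test also called 0 regions, 0% of the 4099 tested, and 5 of the 1901 regions (0.263%, against 0.143% of all merged regions and 0.821% of the comparison) had peaks more often at 12 h at an unadjusted p under 0.05.

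SUZ12 followed another course at the regions than in the comparison. At 12 h the 3 lists had a peak in 14.4%, 13.9% and 12.0% of the regions, and at 28 h in 20.0%, 24.2% and 26.6%. At 16 h, 24 h and 32 h the share was between 1.89% and 5.58% in each list, and at 20 h it was 10.4%, 4.47% and 5.89%. Each list at 12 h and 28 h was therefore above each of the other lists, whereas in the comparison the means lay between 56.2% and 69.6% with the highest at 24 h. All 3 replicates had a SUZ12 peak in 197 regions at 12 h and in 322 regions at 28 h. Of these, 196 had it at both times, which is 99.49% of the former and 60.9% of the latter, and in the comparison 90.4% and 85.2% of the respective regions did. At 28 h, 180 of the 322 regions had no SUZ12 peak in any list at 16 h, 24 h or 32 h, against 116 of 6220 in the comparison.

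The exact test of presence for SUZ12 at 12 h against the other times called 0 regions after adjustment over 15734 regions, 0% of those tested. The smallest p it can reach with 3 lists against 15 is 0.00123. At an unadjusted p under 0.05, 0 of the 1901 regions had SUZ12 less often at 12 h, against 0.1% of all merged regions and 0.521% of the comparison. By the same threshold, 93 of the 1901 regions (4.89%) had SUZ12 more often at 12 h, against 0.43% of all merged regions and 0.653% of the comparison. Without replicate 1, 2 or 3 the number was 1, 1 and 4 (0.0526%, 0.0526% and 0.21%), against 0.219%, 0.094% and 0.0901% of all merged regions. But each of these tests sets 2 lists against 10, which raises the smallest p to 0.0152. With the 28 h lists set aside the number was 151 (7.94%), against 0.708% of all merged regions. The comparison of 28 h with the other times was added after the values had been seen. It also called 0 regions after adjustment (0% of those tested), and at an unadjusted p under 0.05 it gave 265 of the 1901 regions (13.9%), against 1.2% of all merged regions and 2.33% of the comparison. Without replicate 1, 2 or 3 this number was 158, 112 and 98 (8.31%, 5.89% and 5.16%), against 0.696%, 0.602% and 0.579% of all merged regions. The base composition of the SUZ12 lists moved in part with these values, as the peaks were 44.7% to 46.5% GC at 12 h, 45.7% to 47.3% at 28 h, 43.2% to 44.2% at 16 h and 43.8% to 43.9% at 24 h, but also 45.3% to 48.1% at 20 h and 44.2% to 46.2% at 32 h. Its part in the result was not tested.

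**Figure D5:**
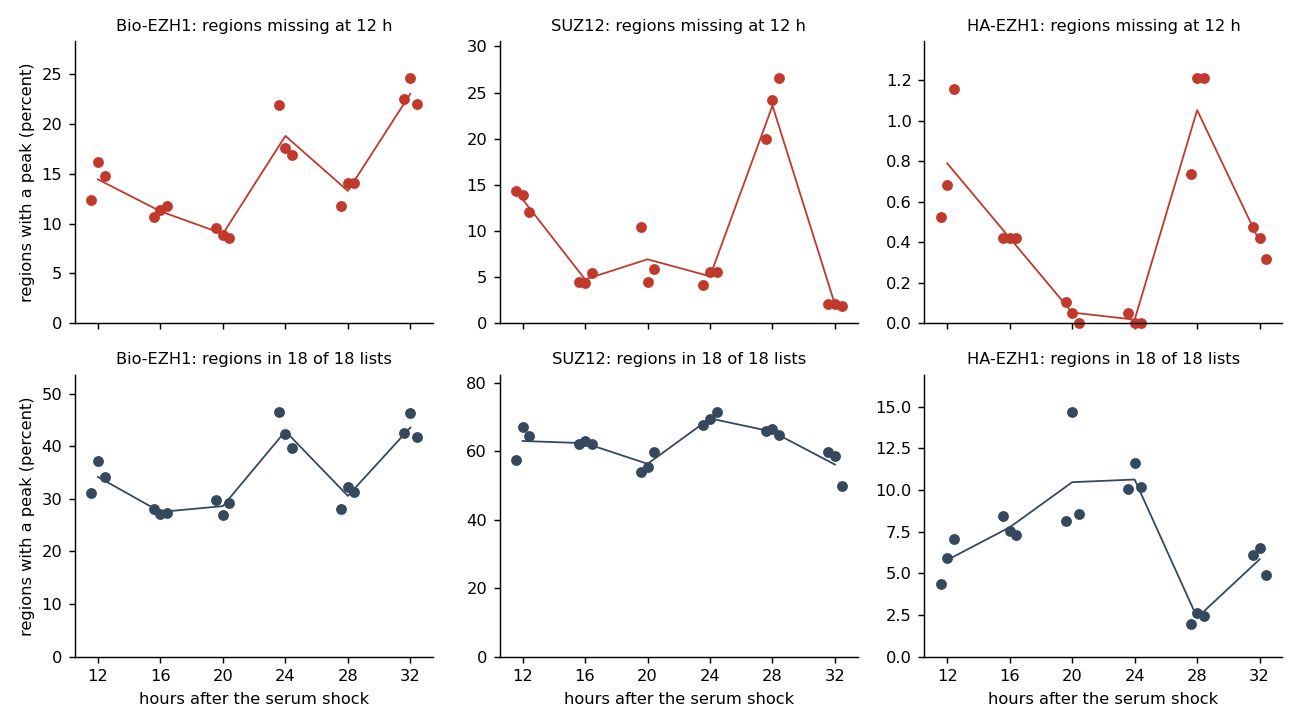
Percent of the regions missing at 12 h (top, red) and of the regions in 18 of 18 lists (bottom, dark) that a peak of Bio-EZH1, SUZ12 or HA-EZH1 overlaps, per list (points) with the mean of 3 (line), against hours after the serum shock, on y axes of different height that start at 0. SUZ12 at the regions missing at 12 h is highest at 28 h (20.0% to 26.6%) and next at 12 h (12.0% to 14.4%), unlike its course in the lower panel.

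Some of the named regions showed the SUZ12 course in single lists. At Rasd1, Fat4, Vcan, Sox8 and Cldn23 a SUZ12 peak was found in 3 of 3 lists at 12 h and in 3 of 3 at 28 h, and in 0 lists at each of the other 4 times. F12 had it in 2 lists at 12 h and 3 at 28 h, and Cox19 in 3 lists at 28 h only. Bio-EZH1 at Sox8 and Cldn23 was present in 18 of 18 lists, so the 2 profiles did not follow the same course there. A smaller group held SUZ12 at every time. At Col14a1, Kcnn1, Cyp26a1, the retinoic acid hydroxylase, Fam131b and a region 29017 bp from the TSS of Eif3c, both SUZ12 and Bio-EZH1 had a peak in 18 of 18 lists, including the 3 lists at 12 h, although no H3K27me3 peak was listed at that time. The fold of H3K27me3 at Cyp26a1 lay between 3.60 and 4.67 over the later lists. Nags and Mapk15, with Bio-EZH1 in 18 lists, had SUZ12 in 11 and 14. HA-EZH1 was found in 3 lists at Kcnn1, all of them at 12 h, and in 2 lists at Cyp26a1.

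Gene lists chosen for this tissue and for Polycomb were read against all 20807 protein-coding genes, of which 5.49% met a region missing at 12 h and 24.3% a region present in 18 lists. Gene length was not adjusted for, and the counts are a description. Regions lay at 8 of 37 potassium channel genes (among them Kcnc1, Kcnma1 and Kcnq1) and at 8 of 38 receptors of glutamate and GABA, among them Gabbr2, Grik3 and Grin2a, while regions present in 18 lists lay at 24 and 18 of these genes. They lay at 5 of 27 collagen genes (Col12a1, Col13a1, Col14a1, Col23a1 and Col4a2), at 4 of 26 cadherins (Cdh15, Cdh4, Pcdh10 and Pcdh17) and at 6 of 44 neural genes, and for regions present in 18 lists the numbers were 16, 4 and 23. Of the secreted signals 7 of 46 were met, which were Bmp6, Bmp7, Fgf10, Wnt4, Wnt5a, Wnt5b and Wnt6, and 30 met a region present in 18 lists.

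Classical Polycomb targets met regions present in 18 lists more often than regions missing at 12 h, as did all protein-coding genes (24.3% against 5.49%). No Hox gene of 39 met a region missing at 12 h and 21 (53.8%) met one present in 18 lists. For developmental transcription factors the numbers were 6 (6.90%, near the share of all protein-coding genes) and 62 (71.3%) of 87. The 6 were Dlx3, Gata2, Irx1, Pax1, Six2 and Tbx15. Of the core clock genes 3 of 21 were met, which were Hlf, a PAR bZIP factor of clock output, Npas2, a paralog of CLOCK, and Rorb, a retinoid-related orphan receptor, and 4 met a region present in 18 lists. Myogenic regulators were met in 0 of 15 cases, and muscle structural genes in 2 of 29, the skeletal actin Acta1 and myoglobin (Mb). Regions present in 18 lists met 2 and 11 of these genes. Of the subunits of PRC2 and PRC1, 1 of 30 was met (Cbx6), and of the genes of cell cycle and housekeeping 0 of 27. Here regions present in 18 lists met 5 and 3. With 5.49% of all protein-coding genes met, a count of 0 in lists as short as these says little.

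The nearest protein-coding gene was in one of these lists for 104 regions. Among the 20 of highest fold, a region 79165 bp from the TSS of Foxd3, a factor of neural crest, had folds of 4.12, 4.20 and 4.81 at 28 h and of 2.78, 2.85 and 2.36 at 24 h, without overlap (limma F test over all later times, adjusted p = 1.14e-06). A second region 6398 bp from the same TSS also had its highest mean at 28 h, with 4.07, 4.05 and 4.33 against 3.14, 3.32 and 3.15 at 16 h (adjusted p = 0.000339). A region over the TSS of Col12a1, another fibril-associated collagen, had a median fold of 4.31, Bio-EZH1 in 2 lists and SUZ12 in 0. At Negr1, a neuronal adhesion protein, the region over the TSS had a median fold of 3.05, Bio-EZH1 in 11 lists and SUZ12 in 2 lists at 12 h and 3 at 28 h. Besides these and Col14a1, described above, the regions had median folds between 3.10 and 3.91, and in 14 of the 20 regions no SUZ12 peak was listed at any time.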

How the data were processed

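ChIP-seq was performed on 78 samples, of which 72 have a peak list and 6 HA inputs have none. The authors mapped reads to mm10 and the Drosophila genome BDGP6 with BWA 0.7.17, processed them with SAMtools 1.7 and Picard, and called peaks with MACS2 2.2.4, broad for H3K27me3 (largest deposited q 0.1) and narrow otherwise (0.05). How the deposited lists were filtered after peak calling is not given in the sources used here. A stricter threshold that the study set for its own target genes is not that of these lists. The deposited lists give the fold enrichment, a linear ratio over the modelled background, and the -log10 q-value of each peak. Peaks were called per sample. Read depth is unknown, since the lists hold no counts, so no interval from reads is given. Wilson intervals over regions cover counting only.

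Peaks on 19 chromosomes were merged where they overlapped by 1 bp or more (Python 3.11.15, NumPy 2.4.6, pandas 2.3.3, SciPy 1.17.1). A region's fold in a list is that of its highest peak, and its median over the 15 later lists is reported. Genes came from GENCODE M21 and sequence from RefSeq GRCm38.p6, which is mm10. Change over time was tested with limma 3.58.1 in R 4.3.3 on log2 fold centred on the list median, and presence of other profiles with two-sided Fisher's exact test, both with Benjamini-Hochberg adjustment. Tests were checked on simulated data. The regions named are those of highest fold, the widest, those of highest fold that hold a protein-coding TSS, those with most Bio-EZH1 or SUZ12 lists, and those near a gene of the 14 lists (505 genes). The result of 1 of these lists is not reported here. The regions and lists were chosen with earlier results of these data known. Alternatives covered the q threshold, merging, coverage, list requirements, the TSS window, centring and left-out replicates. Replicate numbers did not pair the samples, as 0 of 30 pairs of same-numbered lists had a correlation of deviations above 0.1.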

Additional observations from a re-analysis of the deposited data

How the results depend on the processing

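Of 54 alternative values, 45 stayed within the limits set for them and 9 moved. The 45 include the adjusted presence tests, which called 0 regions under every setting and could hardly call any. Direction was not compared. With peaks of q under 0.01 the number of regions missing at 12 h was 1059 in place of 1901, and these overlapped 619 of the 1901 (32.6%). The setting of 25% coverage gave 2305 regions, within the limit for the count, but these overlapped 1104 of the 1901 (58.1%). The median GC content was 50.2% to 50.8% under all settings of the rule. A TSS lay within 3 kb of 40.9% of the regions, and a protein-coding TSS within 1 kb of 25.1%. Leaving out 1 replicate number at a time gave 1 to 4 regions with SUZ12 more often at 12 h (0.0526% to 0.21%, against 0.0901% to 0.219% of all merged regions). At 28 h it gave 98 to 158 (5.16% to 8.31%, against 0.579% to 0.696%). Over 16 h to 32 h it gave 822 to 891 regions called (43.2% to 46.9%, against 37.2% to 38.6% of all regions tested). With the replicate number as a block, 1188 regions (62.5%, against 58.1% of all regions tested) were called in place of 1217, and the numbers do not pair the samples. The cause of these shifts was not tested. Without read counts, a missing peak cannot be told from one under the threshold of the list.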

Other observations

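Chromosome X, which the rule leaves out, held 8892 merged H3K27me3 regions, of which 1030 had a peak in all 15 later lists and 21 of these (2.04%) had no peak at 12 h.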
